A study of Mus musculus with 4 samples.

Results

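The spots described here were the 216 spots of a mouse muscle section, taken 1 day after injury, that were richest in RNA of the injury response genes Gadd45a, Rrad, Dusp5 and Thbd. They were chosen among the 2154 spots of that section with 2000 or more unique molecular identifiers (UMIs, the count of captured RNA molecules), as the spots at or above the 90th percentile of the summed UMIs of the 4 genes divided by the spot's total. The section held 2667 spots, and the 4 sections of the series held 10835. The working name for them was stressed injured-fibre spots, and since the 4 genes are not specific to muscle fibres they are called marker-rich spots below and set against the 1938 other spots of 2000 or more UMIs.

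All 4 sections came from tibial muscle of Nse-Bmp4 mice on the C57BL/6 background, aged 6 to 8 weeks. For each group, 3 tibial muscles were listed as mixed. The paper describes such mixing for its scRNA-seq assay and does not mention it for the sections. How the mixed muscles relate to a section is therefore not settled, and a section need not average over them. The transgene expresses Bmp4 from a rat neuron-specific enolase promoter, and the uninjured group carried it too. Muscle was uninjured (day 0) or was taken 1, 3 or 7 days after cardiotoxin injury, a snake venom toxin that breaks muscle fibre membranes, which in these mice is followed by bone formation in the muscle. There was 1 section per group, so no spread between animals was measured and no p-value was computed. Intervals are at 95% and cover counting error only, except that Clopper-Pearson intervals of shares of spots take spots as independent draws. A spot is a small area of tissue that can hold RNA of several cells, so fewer cells of a type and less RNA per cell cannot be told apart. Barcodes name positions on the array, and the day 1 section shared 1823 of them with day 0, 2075 with day 3 and 1973 with day 7.

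Injured cells switch on a small set of genes within hours. Immediate early factors such as Egr1 and Myc answer growth and stress kinases, the integrated stress response and the unfolded protein response answer amino acid shortage and misfolded protein in the endoplasmic reticulum, and p53 targets hold the cell cycle. In skeletal muscle, damage also raises genes of the sarcomere's stretch sensors and of protein breakdown, while Sox9 is best known as the master regulator of cartilage, although many other tissues use it too.

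The 4 genes of the score have different roles. Gadd45a is a growth arrest and DNA damage gene, Rrad a small GTPase that inhibits calcium channels, Dusp5 a nuclear phosphatase of the kinase ERK, and Thbd (thrombomodulin) the thrombin receptor of vessel walls. Because they chose the spots, their levels are given as a description. The score was between 20.5 and 70.9 UMIs per 10000 in the marker-rich spots, with a median of 26.0, and had a median of 2.55 in the other spots, of which 543 held no UMI of the 4 genes. Gadd45a stood at 611 CPM (UMIs per 1000000 pooled UMIs) in the marker-rich spots and at 119 CPM in the others, Rrad at 1223 and 186 CPM, Dusp5 at 108 and 13.6 CPM, and Thbd at 915 and 121 CPM. Of the marker-rich spots, 60 held UMIs of all 4 genes, 130 of 3, 25 of 2 and 1 of 1 gene. Rrad had the most UMIs of the 4 genes in 106 of them, Thbd in 65, Gadd45a in 43 and Dusp5 in 2.

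The edge of the group was not sharp. The threshold was 20.5 per 10000. The spot just inside had 10 marker UMIs of 4880, and the spot just outside had 11 of 5375. The score of 43 marker-rich spots lay within 10% above the threshold and that of 48 other spots within 10% below it. When spots were chosen on a random 50% of their UMIs, a mean of 55.4% of them were again in the top 10% on the remaining UMIs (53.2% to 57.9% over 20 draws). When each gene was left out of the score in turn, the spots chosen on the other 3 genes still had 3.37 times the Gadd45a level of the remaining spots (3.07 to 3.69), 3.51 times that of Rrad (3.27 to 3.75), 5.40 times that of Dusp5 (4.30 to 6.76) and 4.43 times that of Thbd (4.10 to 4.79). Each gene was higher where the other 3 were high. The 4 genes were picked with earlier results of these data known, so this is a description only. Across the 2154 spots, each thinned to 2000 UMIs, Spearman's rho had a mean of 0.31 between Thbd and Rrad, 0.29 between Thbd and Gadd45a and 0.090 between Dusp5 and Gadd45a, all weak and all from spots of 1 section.

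Marker-rich spots were somewhat shallower than the others. Their totals ran from 2036 to 16179 UMIs with a median of 6132.5, against 2006 to 22083 and a median of 7680.5 in the other spots. They held a median of 2089.5 genes, against 2055.5. Mitochondrial genes took 16.9% of their UMIs and 18.0% of those of the others.

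**Figure D1:**
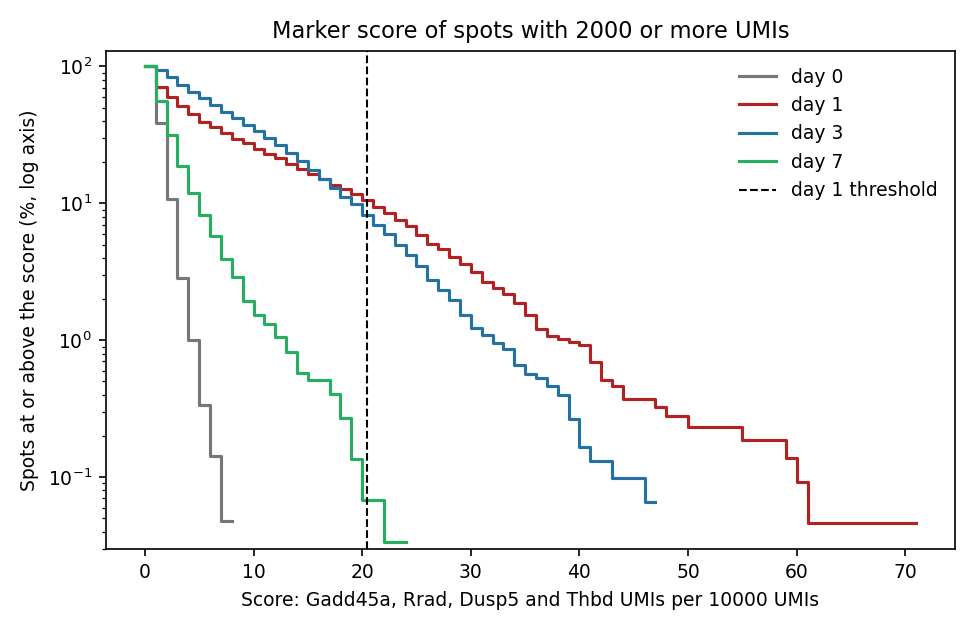
Share of spots with 2000 or more UMIs (percent, log axis) at or above each value of the marker score (UMIs of Gadd45a, Rrad, Dusp5 and Thbd per 10000 UMIs), with 1 line per section. The day 1 section (red) runs to 70.9 per 10000, the day 3 section (blue) to 46.7, the day 7 section to 23.6 and the day 0 section to 7.26. The dashed line is the day 1 threshold. Spots were not thinned here, and median depth differed between sections.

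Sox9 had the highest ratio of all genes named by rule. In marker-rich spots it ranged from 0 to 27.4 UMIs per 10000 with a median of 0, and 66 of 216 spots held at least 1 UMI. In the other spots it ranged from 0 to 10.9 with a median of 0, and 183 of 1938 held 1. So most marker-rich spots had no Sox9 UMI, and the groups overlapped. Pooled, Sox9 had 174 UMIs in marker-rich spots and 264 in the others, or 125 CPM (107 to 145) against 17.8 CPM (15.7 to 20.03), a ratio of 7.03 (5.77 to 8.55). The 216 spots, with 39.7% of the Sox9 UMIs of the 2154 spots, gave the same ratio within its interval without their richest spot, which held 12 UMIs (6.58, 5.37 to 8.03). After thinning to 2000 UMIs, 17.6% of marker-rich spots (Clopper-Pearson interval 12.8% to 23.3%) and 3.42% of the others (2.64% to 4.31%) held a Sox9 UMI. In region 4, a part of the section led by muscle genes such as Tcap and Mss51, which is described further below, that share was 0.541%, the lowest of 10 regions, and in region 5, the highest, it was 21.3%. The Clopper-Pearson intervals take the spots of the section as independent draws. With Sox9 uneven between regions that need not hold, so these intervals may be too narrow. Pooled, all spots of region 5 had 138 CPM of Sox9 (120 to 158). Those of them that were not marker-rich had 92.5 CPM (74.1 to 114).

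The Sox9 ratio was lower when Rrad was left out of the score, at 1.998 on the log2 scale against 2.81, and higher without Gadd45a, at 3.21. It was also uneven over depth. The 72 shallowest marker-rich spots had 214 CPM of Sox9, the 72 of middle depth 179.7 CPM and the 72 deepest 56.3 CPM (40.1 to 77.0), which was still 3.17 times the level of all other spots (2.21 to 4.45). Across thinned spots, Spearman's rho of Sox9 with the summed score genes was 0.20 (0.18 to 0.22 over draws), a weak relation in sparse counts.

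The early skeletal list, which Sox9 belongs to, was mixed. The early skeletal list of 31 genes held 375 UMIs in marker-rich spots, 46.4% of them Sox9, and its summed CPM ratio was 1.04 (0.932 to 1.16), a direction that turned with TMM factors (0.854). Without Sox9 the remaining 30 genes had a ratio of 0.598 (0.516 to 0.689). Of the 6 genes with at least 200 UMIs, Sox9 was higher, while Prg4 (the joint lubricant lubricin, ratio 0.413), Chad (chondroadherin, 0.205) and Scx (the tendon factor scleraxis, 0.642, with an interval of 0.381 to 1.02) were lower by the 1.5-fold rule, when over all tested genes 23.1% were higher and 8.22% lower. The median log2 ratio of the 6 was -0.45, of the opposite sign to the sum. Sox6, a partner of Sox9 in cartilage, had a ratio of 0.844 (0.577 to 1.197). The cartilage matrix genes Col2a1, Acan, Col9a1, Hapln1 and Snorc, the bone genes Sp7, Ibsp and Bglap and the growth plate signal Ihh had 0 UMIs in marker-rich spots, as did 17 genes of the list in all, and none of these 9 had more than 16 UMIs in the other spots. Comp, a cartilage and tendon matrix protein, had 0 UMIs against 152. With fewer UMIs than the rule for tested genes required, Sox4 had 33 UMIs against 79 (ratio 4.46, 2.88 to 6.77, and 3.12 without 1 spot that held 10 of the 33), and Runx2, the bone master factor, had 5 against 14 (3.81, 1.07 to 11.2). In the BMP and TGF-beta list, Id2, a BMP target, had a ratio of 2.08 (1.495 to 2.85) and Tgfbr1 of 1.67 (1.17 to 2.33), both higher by the rule. These 2 of 9 tested genes (1 of 9 with TMM factors) were a share near the 23.1% of all tested genes. The BMP targets Id1 (1.14) and Id3 (1.01) and the receptor Bmpr2 (0.931) were not higher. Bmp4 itself had 3 UMIs in marker-rich spots and 40 in the others.

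Over the whole transcriptome, 6510 genes had at least 200 UMIs. Of these, 1501 (23.1%) were 1.5-fold or more higher in marker-rich spots and 535 (8.22%) were as much lower. The balance depended on the scaling: the median log2 ratio of all tested genes was 0.21, TMM factors moved every log2 ratio by -0.28 and DESeq2 size factors by -0.27, and with TMM factors 607 genes were higher and 1160 lower. Ratios below are of CPM, to be read against that shift, and a list's count is given with the count under TMM factors. List counts are to be read against the 23.1% higher and 8.22% lower of all tested genes. Counts with TMM factors are to be read against 607 higher and 1160 lower of 6510. The median log2 ratio of the tested genes was 1.37 for the MAPK feedback list, 0.91 for oxidative and metal, 0.87 for immediate early, 0.83 for integrated stress and unfolded protein, 0.66 for heat shock and 0.46 for p53 and growth arrest, all above the 0.21 of all genes. In muscle it was 0.38 for fibre damage and remodelling, 0.28 for atrophy and denervation, -0.45 for adult myofibre and -3.71 for slow myofibre genes. Median and summed ratio differed in sign for the hypoxia and glucose, MSC, RGK and calcium channel and early skeletal lists.

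Besides Sox9, the genes with the highest ratios were growth, signalling and stress genes. Plk2, a polo-like kinase and p53 target, had a median of 1.59 UMIs per 10000 in marker-rich spots and 0 in the others, and its CPM ratio was 5.74 (5.01 to 6.57). Myc, the growth factor response gene, had 113 CPM against 24.6 (4.61, 3.80 to 5.57). Among transcription factors, Fosl1, a subunit of AP-1, had a ratio of 4.22 (3.32 to 5.33), Egr1 of 3.83 (3.01 to 4.83), Tgif1, a repressor of TGF-beta signalling, of 3.86 (3.03 to 4.88), and Tsc22d1, which TGF-beta induces, of 3.91 (3.59 to 4.25). Tsc22d1 was found in 189 of 216 marker-rich spots and 971 of 1938 others. Slc38a2, an amino acid transporter, had a ratio of 3.55 (3.28 to 3.84), Pdpn (podoplanin), a membrane glycoprotein of stromal and injured cells, of 3.50 (3.11 to 3.93), and the kinase Mast4 of 3.83 (3.03 to 4.82).

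The same rule named 4 muscle injury genes and 1 macrophage gene. Trim63, the muscle ubiquitin ligase MuRF1, was found in every marker-rich spot at 3.59 to 80.1 UMIs per 10000 with a median of 27.9, against a median of 6.86 in the others, and its CPM ratio was 3.00 (2.90 to 3.10). Its level in 212 of 216 marker-rich spots lay above the median of the others. Ankrd1, a stretch-induced partner of titin, had a ratio of 3.26 (3.04 to 3.49), Ampd3, an AMP deaminase, of 3.77 (3.22 to 4.40), and Runx1, which denervated and damaged muscle switches on, of 3.50 (2.93 to 4.16). Retnla, made by alternatively activated macrophages, had a ratio of 5.03, but 82 of its 90 UMIs came from 1 spot, and without that spot the ratio was 0.452 (0.193 to 0.909).

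**Figure D2:**
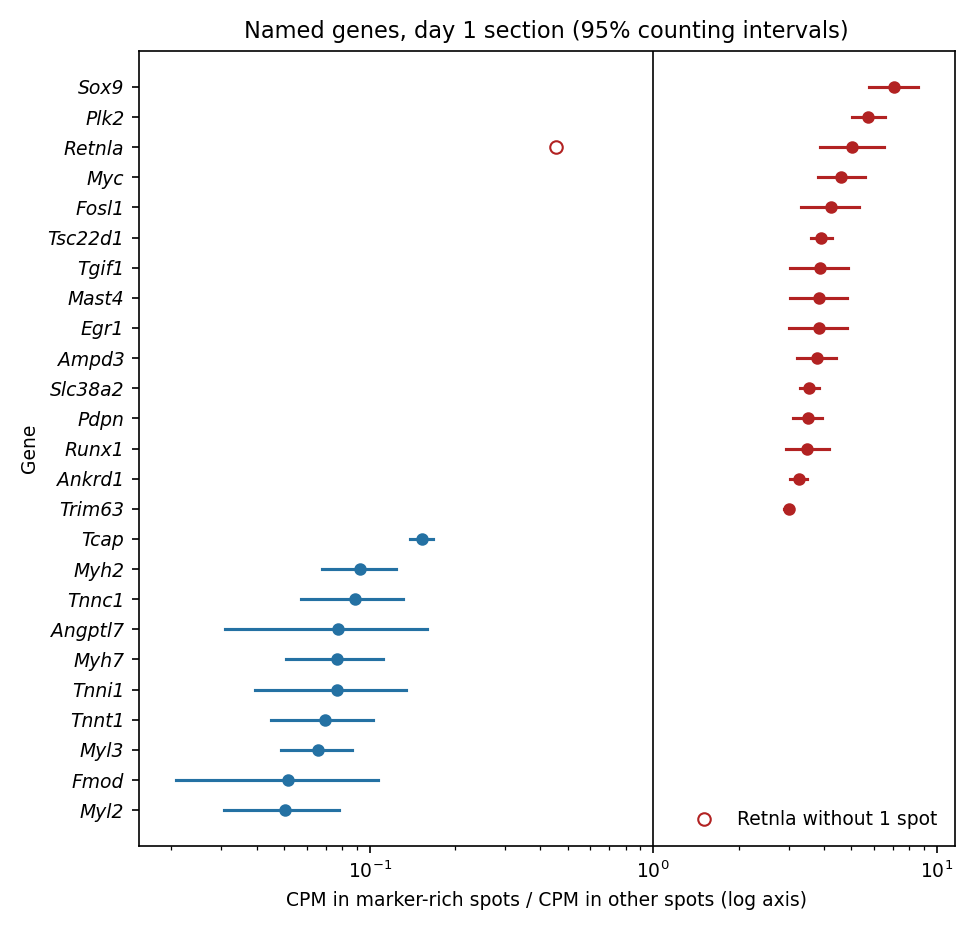
CPM in marker-rich spots divided by CPM in other spots (log axis) for the 25 genes named by rule, with 95% counting intervals. Red points are the 15 highest and blue points the 10 lowest, and the open circle is Retnla without the 1 spot that held 82 of its 90 UMIs.

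Many signalling genes were higher. Of 16 immediate early genes tested, 11 were higher and none lower (8 and 2 with TMM factors), and their summed CPM ratio was 1.91 (1.82 to 2.01). Klf6, a zinc finger factor of injured tissue, had a ratio of 3.25 (2.85 to 3.69), Ier3 of 2.60 (2.11 to 3.18) and Atf3 of 2.36 (1.96 to 2.84). The classical members Fos (1.11, 0.768 to 1.56) and Jun (1.06, 0.839 to 1.32) did not pass, nor did Nr4a1 (0.700). Of 5 feedback inhibitors of MAP kinases, Dusp1 (2.72, 2.41 to 3.06), Dusp10 (2.58, 2.09 to 3.16) and Spry2 (3.64, 2.67 to 4.90) were higher, as they were with TMM factors, whereas Dusp6, the usual reporter of ERK activity, had a ratio of 1.16 (0.771 to 1.70).

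Of 11 genes of the p53 and growth arrest list, 5 were higher and none lower (4 with TMM factors). Beside Plk2 these were the cell cycle inhibitor Cdkn1a (2.23, 1.97 to 2.51), the p53 ubiquitin ligase Mdm2 (2.24, 1.83 to 2.72), Gadd45b (1.77, 1.40 to 2.21) and the receptor Eda2r (1.92, 1.53 to 2.39). The p53 targets Ccng1 (0.912), Phlda3 (0.931) and the death gene Bax (1.00) did not pass. Genes of DNA replication went the same way as the arrest genes: of 6 cell cycle genes tested 5 were higher (2 with TMM factors), among them Pcna, the sliding clamp of DNA polymerase, at 234 CPM against 96.2 (2.43, 2.15 to 2.75), and Rrm2, a subunit of ribonucleotide reductase (2.08, 1.48 to 2.86). In the cell death list the death gene Bcl2l11 (2.32, 1.58 to 3.33), Bak1 (1.59) and Bcl10 (1.58) were higher and the other 4 tested genes were within 1.5-fold. With TMM factors 1 of the 7 was higher.

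The integrated stress and unfolded protein list was higher in 12 of 18 genes and lower in 2 (9 and 2 with TMM factors), with a summed ratio of 2.07 (2.01 to 2.12). The list stood at 19.0 to 93.2 UMIs per 10000 in marker-rich spots with a median of 42.8, and at a median of 19.6 in the others, where the highest spot had 97.8. Hspa5 (BiP), the main chaperone of the endoplasmic reticulum, held 32.5% of the list's UMIs in marker-rich spots, was found in 214 of 216 of them, and had a ratio of 2.91 (2.77 to 3.06). The co-chaperone Dnajb9 had a ratio of 3.11 (2.81 to 3.44), and Ppp1r15a (GADD34), which reverses the stress block on translation, of 3.37 (2.85 to 3.96). The factor Ddit3 (CHOP) had a ratio of 2.46 (2.02 to 2.98), while its upstream factor Atf4, which is regulated mainly at translation, had 1.56 (1.42 to 1.72). The 2 lower genes were Ddit4, an inhibitor of mTOR, with 5 UMIs against 252 (ratio 0.212, 0.0682 to 0.501), and Chac1, a glutathione-degrading target of Atf4 (0.376, 0.221 to 0.600). The higher members were thus mostly reticulum chaperones, while the amino acid side was mixed, with Psat1, a serine synthesis enzyme, at 1.97 (1.49 to 2.56), Phgdh, of the same pathway, at 0.951 (0.552 to 1.54), and Asns, below the UMI minimum, at 1.64.

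Many chaperone genes of the reticulum carry a stress element, ERSE, the letters CCAAT and CCACG with 9 bases between them, in their promoters. The 250 bases before the start of 4 higher list members that hold it are shown here, 5′ to 3′ on the strand of the gene, with the element, on either strand, in capitals. Sequences are those of RefSeq on GRCm38.p6, at chr2:34771840-34772089 (plus strand) for Hspa5, chr10:86705445-86705694 (minus) for Hsp90b1, chr15:88819396-88819645 (plus) for Creld2 and chr8:84846932-84847181 (minus) for Calr.
Hspa5: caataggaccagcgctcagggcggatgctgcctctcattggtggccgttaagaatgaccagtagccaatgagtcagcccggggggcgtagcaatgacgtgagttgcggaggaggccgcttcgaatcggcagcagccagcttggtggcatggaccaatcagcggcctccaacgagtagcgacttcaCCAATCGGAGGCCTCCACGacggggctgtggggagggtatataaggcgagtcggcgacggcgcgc
Hsp90b1: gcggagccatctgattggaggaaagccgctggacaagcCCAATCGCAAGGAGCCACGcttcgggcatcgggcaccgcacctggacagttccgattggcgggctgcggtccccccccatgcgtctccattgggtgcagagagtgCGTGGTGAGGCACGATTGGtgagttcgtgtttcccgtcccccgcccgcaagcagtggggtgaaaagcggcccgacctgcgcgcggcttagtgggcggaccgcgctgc
Creld2: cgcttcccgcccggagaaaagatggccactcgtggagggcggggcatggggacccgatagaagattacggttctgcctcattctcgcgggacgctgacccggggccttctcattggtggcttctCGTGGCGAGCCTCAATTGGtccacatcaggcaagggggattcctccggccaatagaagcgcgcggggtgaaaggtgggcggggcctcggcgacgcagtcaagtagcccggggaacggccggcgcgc
Calr: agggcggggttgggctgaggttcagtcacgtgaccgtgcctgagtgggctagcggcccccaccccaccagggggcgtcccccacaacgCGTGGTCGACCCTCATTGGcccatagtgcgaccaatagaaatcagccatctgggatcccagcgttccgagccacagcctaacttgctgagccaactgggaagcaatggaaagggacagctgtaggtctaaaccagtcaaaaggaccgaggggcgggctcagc

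Hsp90b1 held the element at 2 places and each of the other promoters shown at 1. Dnajb9, Sdf2l1, Pdia4, Atf4 and Ddit3, also higher members of the list, did not hold it in their 250 bases. Of 27025 mouse genes in the promoter table (first listed start of each gene), 33 (0.122%) held these letters within 250 bases, and of the 5226 tested genes found in it, 10 did. These were 9 of the 1200 higher genes (0.750%) and 1 of the 421 lower genes (0.238%). The 9 were Hspa5, Creld2 (2.78, 2.22 to 3.46), Hsp90b1 (2.43, 2.27 to 2.60), Pdia6 (1.95), Dnajc3 (1.90), Canx (1.84), Hnrnpa3 (1.69), Syvn1 (1.68) and Calr (1.51, 1.39 to 1.63), and the lower gene was Acacb (0.429). All except Hnrnpa3, an RNA-binding protein, and Acacb, a regulator of fatty acid oxidation, encode proteins of the endoplasmic reticulum. With TMM factors 6 of the 10 were higher and 1 lower. The cyclic AMP element TGACGTCA was in 1.62% of all promoters, 3.06% of those of tested genes and 3.67% of those of higher genes, and the AP-1 site TGANTCA in 6.87%, 4.29% and 4%. A match of letters is a description and not a bound site. Rrad, Thbd, Sox9 and Myc were not in the table.

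Summed ratios were 1.60 (1.58 to 1.62) for the heat shock list and 1.56 (1.54 to 1.58) for the oxidative and metal list. Of 17 heat shock genes 9 were higher, a count that fell to 2 with 3 lower under TMM factors. Those TMM counts were near the shares of all tested genes under that scaling. Hspb8, a small heat shock protein of chaperone-assisted autophagy, had a ratio of 2.75 (2.63 to 2.87), Hsp90aa1 of 2.46 (2.19 to 2.76), and the abundant lens and muscle protein Cryab had a median of 106 UMIs per 10000 against 46.6 and a ratio of 1.82 (1.79 to 1.86). Hspb1 (0.752) and Hspb7 (0.809), also small heat shock proteins of muscle, did not pass. Of 13 oxidative and metal genes 9 were higher (7 with TMM factors). The Nrf2 targets Osgin1 (3.27, 2.61 to 4.07), Srxn1 (3.06, 2.80 to 3.35) and Gclm (2.25, 1.83 to 2.74) led this list, and the metallothionein Mt2 had 2.08 (2.02 to 2.15), while the haem oxygenase Hmox1 had 1.32 (1.10 to 1.58). Hypoxia and glucose genes were split (4 of 11 higher and 1 lower, or 3 and 4 with TMM factors), with the hexokinase Hk2 (2.63, 2.35 to 2.94), the glucose transporter Slc2a1 (2.60, 2.04 to 3.29), Egln3 and Vegfa higher, Pdk1 lower and Ldha, lactate dehydrogenase, at 0.798.

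**Figure D3:**
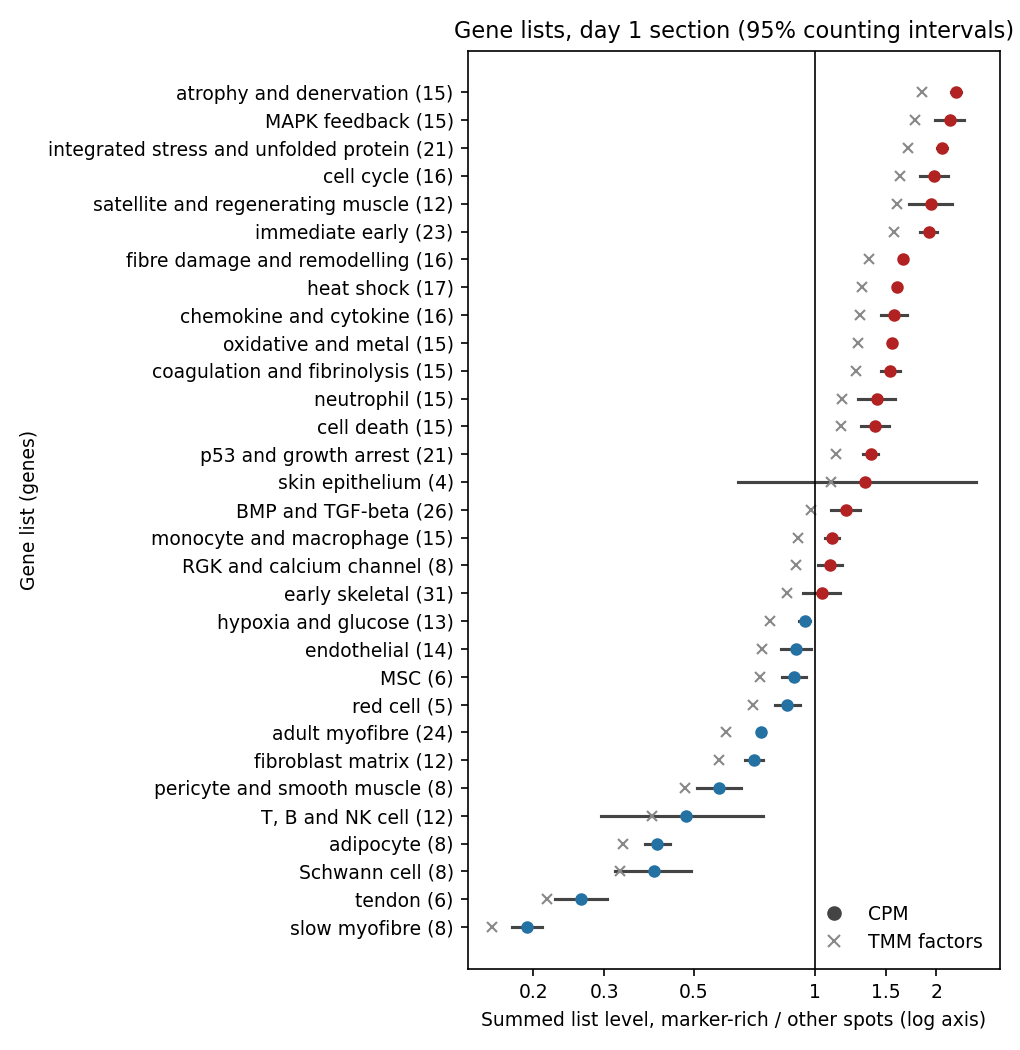
Summed level of each gene list in marker-rich spots divided by that in other spots (log axis), with the number of genes in brackets and 95% counting intervals (dots, CPM). Crosses give the same ratio with TMM factors, which lies 0.28 lower on the log2 scale for every list and crosses 1 for the BMP and TGF-beta, monocyte and macrophage, RGK and calcium channel and early skeletal lists.

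The fibre part of the working name was checked with muscle lists. The adult myofibre list was present in every marker-rich spot, at 456 to 2222 UMIs per 10000 with a median of 1362, but lower than in the other spots, where the median was 1857 (range 59.1 to 3267). It took 13.6% of all UMIs in marker-rich spots and 18.5% in the others, a ratio of 0.734 (0.730 to 0.737). None of its 24 genes was higher and 7 were lower (21 with TMM factors), among them Mb (myoglobin, 0.257), Casq1 (calsequestrin, 0.495) and Mylpf (a fast myosin light chain, 0.611). Acta1, skeletal actin, had a ratio of 0.800 and Myh4, the fastest myosin heavy chain, of 0.729.

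Slow fibre genes were among the lowest of all. Myl2, a slow myosin light chain, had 20 UMIs in marker-rich spots and 4235 in the others (14.4 against 285 CPM, 19.8-fold lower), Myl3 was 15.2-fold, Myh7, the slow myosin heavy chain, 13.04-fold and the troponins Tnnt1, Tnni1 and Tnnc1 14.4-fold, 13.1-fold and 11.3-fold lower. Myh2, the myosin of oxidative fast fibres, was 10.8-fold lower. These differences lay in a minority of the other spots: the slow myofibre list had a median of 3.07 UMIs per 10000 in marker-rich spots and 2.63 in the others, while the highest spots had 49.2 and 422. They also depended on Rrad. With Rrad left out of the score, the log2 ratio of Myh7 was -0.055, that of Tnnc1 -0.17 and that of Myl2 -0.63. Tcap, a titin cap protein, was 6.55-fold lower, and in no marker-rich spot was it above the median of the others. The tendon genes Fmod (fibromodulin, 7 UMIs against 1445) and Angptl7 (7 against 967) were the remaining named genes on the lower side.

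Genes of fibre damage and of protein breakdown were divided. Of 16 fibre damage and remodelling genes 8 were higher and 3 lower (5 and 6 with TMM factors), and the summed ratio was 1.66 (1.63 to 1.68). Mustn1, a small protein of growing muscle, held 42.4% of the list, was found in every marker-rich spot, and had a ratio of 2.34 (2.29 to 2.39). Xirp1, an actin-binding protein of repair sites, had 2.94 (2.78 to 3.10), Tnfrsf12a, the TWEAK receptor, 2.28 (2.10 to 2.48) and Flnc (filamin C) 1.58 (1.53 to 1.63). The lower members were Ankrd2 (0.343), Csrp3 (0.537) and Myom3 (0.144), which are enriched in slow or oxidative fibres. In the atrophy and denervation list, where 5 of 11 genes were higher and 2 lower (3 and 2 with TMM factors), Trim63 held 74.5% of the UMIs, Fbxo32 (atrogin-1) had a ratio of 1.68 (1.55 to 1.82), and the ubiquitin ligase Fbxo30 of 2.50 (1.82 to 3.39). The glucocorticoid target Klf15 (0.213) and Sln (sarcolipin, 0.103) were lower.

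Of 4 tested genes of satellite cells and regenerating muscle, 2 were higher and 1 (Myl4, 0.623) lower, with the same counts under TMM factors. Myod1 had 153 UMIs against 699 (ratio 2.34, 1.95 to 2.79) and Myog, which drives myoblast differentiation, 115 against 392 (3.13, 2.52 to 3.86). The stem cell factor Pax7 and the fusion genes Mymk and Mymx had 0 UMIs in marker-rich spots and 21, 17 and 7 in the others, and the embryonic myosin Myh3 had 1 against 19. The marker-rich spots held 1393586 UMIs in all and the others 14871156. Such small counts therefore cannot show whether the levels of these 4 genes differed.

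Lists of other cell types mostly did not follow the score. Of the 15 monocyte and macrophage genes only Cd68, a lysosomal protein, was higher (1.60, 1.39 to 1.82), and none with TMM factors. The list summed to 1901 CPM against 1724 (ratio 1.10, 0.906 with TMM factors), and its spots ranged from 0 to 72.2 UMIs per 10000 against 0 to 159. In the neutrophil list S100a8 (1.51, 1.23 to 1.84) and S100a9 (1.71, 1.40 to 2.06) were higher, and none with TMM factors. The granule genes Ngp, Camp and Ltf and the surface gene Ly6g were hardly captured in either group. They had 0 UMIs in marker-rich spots, and a UMI in 0, 1, 2 and 1 of the other spots. The monocyte-attracting chemokines Ccl2 (1.64, 1.45 to 1.86) and Ccl7 (1.58, 1.40 to 1.78) and Il1b (1.64, 1.08 to 2.42) were higher in CPM and not with TMM factors. The T cell markers Cd3e and Cd4 had 0 UMIs in both groups.

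The list of endothelial cells, which line vessels and carry Thbd, was at 429 CPM against 477 (0.899, 0.826 to 0.977). Pecam1 had 68.9 CPM in both groups, Cdh5 a ratio of 1.29 (0.995 to 1.65), and of 10 tested genes only Vwf passed, on the lower side (0.548), with 5 lower under TMM factors. The urokinase receptor Plaur had a ratio of 2.21 (1.57 to 3.06). Of the RGK relatives of Rrad, all below the minimum for testing, Rem1 had 6 UMIs against 80 (ratio 0.800, 0.285 to 1.82), Gem 11 against 33 (3.56, 1.62 to 7.21) and Rem2 0 in both groups.

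Stromal lists were lower or within 1.5-fold. Of 7 pericyte and smooth muscle genes 6 were lower, among them Acta2 (0.461), Myh11 (0.367) and Rgs5 (0.648). All 6 adipocyte genes tested were lower, led by Cfd (0.153) and Cidec (0.193), as were all 3 Schwann cell genes. No gene of the mesenchymal stromal cell (MSC) list passed, with Pdgfra at 1.29 (0.860 to 1.88), Prrx1 at 1.13 and Ly6a at 0.814. Among 12 fibroblast matrix genes Col1a1 (0.609), Col1a2 (0.561), Dcn (0.523) and Gsn (0.597) were lower, and Postn (periostin), a matrix protein of wounds, was higher (1.84, 1.36 to 2.46). With TMM factors 7 of the 12 were lower and 1 higher, and the counts of the other lists of this paragraph stayed the same.

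To see where the marker-rich spots lay among kinds of tissue, the 2154 spots were clustered into 10 regions by expression, leaving out the 4 score genes and Sox9. Of the 216 spots, 213 fell in 3 regions. Region 5, led by Sox9, Cited4, Tafa5, Gal and Slc38a2, held 83 of them among its 222 spots. Region 1, led by the leukocyte genes Slfn4, Spp1, Clec10a and C5ar1, held 70 of 393. Region 3, led by Myog, Peg3, Nes and Egln3, held 60 of 336. Regions 8 and 10 held 2 and 1, and the other 5 regions, among them regions 7 and 9, which the slow fibre genes Myl3, Myh7 and Myl2 led, held none.

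The 3 sets of marker-rich spots differed in their other RNA. Sox9 stood at 218 CPM (180 to 261) in those of region 5, 67.2 CPM (44.7 to 97.2) in those of region 3 and 59.1 CPM (38.3 to 87.3) in those of region 1. The satellite and regenerating muscle list, in which Myod1 had the most UMIs, stood at 382 CPM in region 3, 206 in region 1 and 114 in region 5, and the monocyte and macrophage list at 3275 CPM in region 1, 992 in region 3 and 1519 in region 5. The adult myofibre list took 16.5% of UMIs in the marker-rich spots of region 5, 12.7% in those of region 3 and 10.6% in those of region 1. Among the score genes, Dusp5 was highest in region 5 (153 CPM, against 80.4 and 74.4 in regions 1 and 3), Rrad in region 3 (1448 CPM) and Thbd in region 1 (1201 CPM).

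Compared only with the other spots of their own region, marker-rich spots had smaller shares of higher genes than over the section, while the share of lower genes was larger in region 1 (15% against 8.22%) and smaller in regions 3 and 5. Called genes were 95 higher (6.15% of 1544 tested) and 231 lower (15%) in region 1, 130 higher (8.25% of 1576) and 54 lower (3.43%) in region 3, and 13 higher (1.6% of 813) and 2 lower (0.246%) in region 5. Sox9 had a ratio above 2 in all 3, at 2.65 (1.54 to 4.48) in region 1, 2.48 (1.53 to 3.93) in region 3 and 2.35 (1.77 to 3.14) in region 5, where it had 118 UMIs against 87. Plk2 had 2.50, 2.85 and 2.40 in the same order, Myc 2.93, 2.97 and 2.31, Egr1 2.80, 2.61 and 2.96, and Ankrd1 2.33, 1.85 and 1.88. Runx1 (1.23, 0.82 to 1.80) and Fosl1 (1.70, 0.98 to 2.83) had intervals that included 1 in region 1, and Tgif1 (1.27, 0.81 to 1.96) in region 5. Among the 813 genes tested inside region 5, the 13 higher were Sox9, Ankrd1, Xirp1, Klf6, Dusp1, Bhlhe40, Ccn1, Ifrd1, Zfand5, Cstb, Prdx6, Ostc and 1110002E22Rik. Plk2, Myc, Egr1 and other named genes had too few UMIs there to be tested, so their ratios are outside that count.

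Several lists changed sign between regions. The fibroblast matrix list had a ratio of 1.93 (1.79 to 2.08) inside region 3 and 0.67 (0.61 to 0.74) inside region 1, and the neutrophil list 1.29 (1.07 to 1.55) inside region 5 and 0.51 (0.42 to 0.61) inside region 1. The monocyte and macrophage list was at 0.66, 0.93 and 0.86 in regions 1, 3 and 5, and the adult myofibre list at 1.07, 0.89 and 0.93. Integrated stress and unfolded protein was at 1.34, 1.42 and 1.23, heat shock at 1.66, 1.24 and 1.21, fibre damage at 1.68, 1.28 and 1.24, and atrophy at 1.86, 1.34 and 1.205. Immediate early was at 1.29, 1.85 and 1.57, and MAPK feedback at 1.44, 1.94 and 1.49. Smaller ratios were those of p53 and growth arrest (1.16, 1.33 and 1.14) and oxidative and metal (1.11, 1.16 and 1.09). Hypoxia and glucose was at 1.08, 0.96 and 1.02. These are CPM ratios, and TMM factors were not computed inside regions. The slow myofibre list, at 0.193 over the section, was at 0.85 (0.73 to 0.99), 0.90 (0.77 to 1.05) and 1.05 (0.84 to 1.30) inside them.

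**Figure D4:**
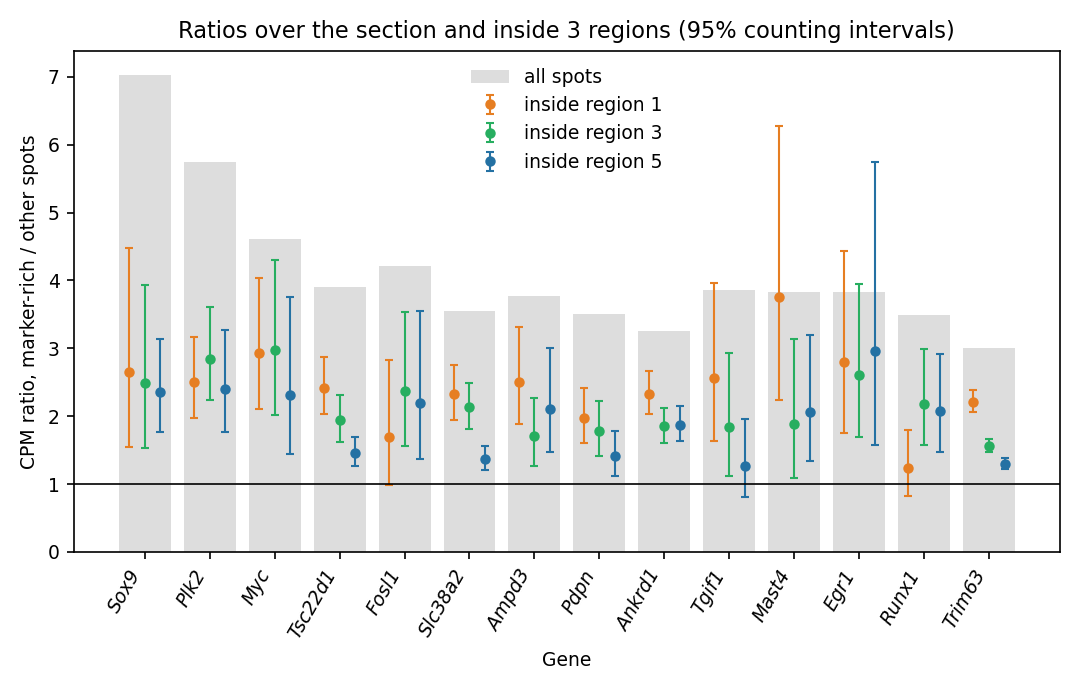
CPM ratio of marker-rich to other spots for 14 of the 15 named higher genes (Retnla left out), over all spots (grey bars) and inside regions 1, 3 and 5 (points with 95% counting intervals). All points sit below their bars.

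Levels of 6 genes were also followed along the score. All except Hspa5 were named for their ratios in these same spots, so their higher levels in the marker-rich bins follow from that choice. Sox9 was at 6.26 CPM (3.97 to 9.39) in the 543 spots without a marker UMI, 7.31 and 7.16 CPM in the next 2 bins of other spots, 21.4 and 57.6 CPM (48.4 to 68.0) in the bins nearest the threshold, and 91.0 (69.8 to 117) and 157 CPM (130 to 189) in the lower and upper part of the marker-rich spots, of 108 spots each. Plk2 went from 12.0 CPM without marker UMIs to 131 CPM just below the threshold and 301 CPM in the upper part, and Trim63 from 492 to 2251 and 3247 CPM. Hspa5 was level across the marker-rich spots, at 1413 CPM (1325 to 1505) in the lower and 1462 CPM (1374 to 1553) in the upper part.

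**Figure D5:**
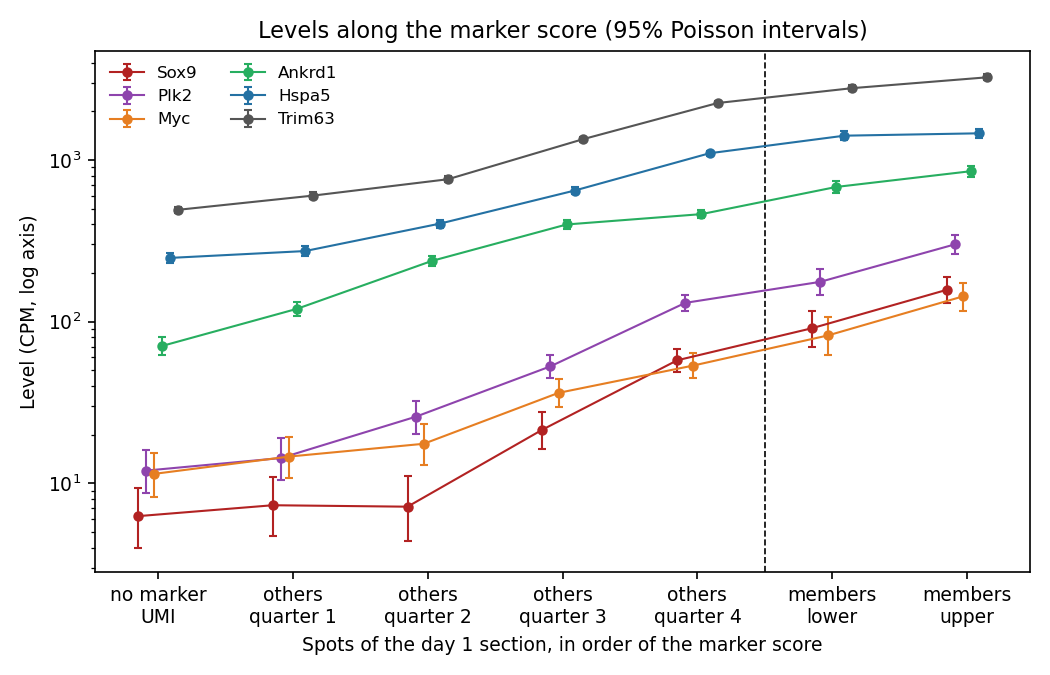
CPM (log axis, 95% Poisson intervals) of Sox9, Plk2, Myc, Ankrd1, Hspa5 and Trim63 in 7 groups of spots ordered by the marker score, from 543 spots without a marker UMI to the upper 108 marker-rich spots. The dashed line separates other spots from marker-rich spots, and each gene is higher at the right end than at the left. All except Hspa5 were named for their ratios in these same spots.

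The same score was applied to the other sections, where it chose different spots. No spot of the day 0 section reached the day 1 threshold, 225 of day 3 (7.45%) and 2 of day 7 did. Over whole sections, in the order of the days, Rrad stood at 4.86, 277, 662 and 74.8 CPM, while Gadd45a (48.3, 162, 61.6 and 68.9 CPM), Dusp5 (1.64, 22.1, 20.2 and 3.94) and Thbd (39.0, 191, 68.4 and 39.5) were highest at day 1. Rrad made up 42.5% of the marker UMIs at day 1 and 81.5% at day 3, so the day 3 score was mainly a Rrad score. Sox9 stood at 3.90, 27.3, 15.6 and 84.5 CPM in the 4 sections.

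In the top 10% of spots of each section, day 0 had 633 higher (6.82%) and 52 lower genes (0.56%), day 3 519 (4.7%) and 3810 (34.5%), and day 7 316 (2.95%) and 413 (3.85%). Of the genes higher at day 1, 55 of the 1448 tested at day 0 (3.80%), 70 of 1498 at day 3 (4.67%) and 44 of 1489 at day 7 (2.96%) were higher there too, shares near or below those of all tested genes of these sections. Against 7.03 at day 1, the Sox9 ratio was 1.00, 1.24 and 0.444 for days 0, 3 and 7. Trim63 had 0.99, 2.74 and 1.79 at days 0, 3 and 7, and Slc38a2 0.95, 1.99 and 1.11. The integrated stress and unfolded protein list had 1.17, 0.82 and 1.03, and the adult myofibre list 0.95, 1.62 and 0.95.

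Marker-rich and neutrophil-rich spots overlapped in part. Of the 216 spots highest in the neutrophil list, 35 were marker-rich, or 16.2% of each set, against 10.03% marker-rich among all 2154 spots and 9.34% (181 of 1938) among those that were not neutrophil-rich. The neutrophil-rich spots had 910.3 CPM of the 4 score genes and 55.6 CPM of Sox9, the marker-rich spots outside them 114 CPM of Sox9, and the spots in neither set 16.9 CPM.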

How the data were processed

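The authors deposited unnormalized UMI counts, 1 table per section, made from fresh frozen sections on a spatial array. The matrix headers name Space Ranger 1.2.0, the submitters' processing notes name mm10, and the study's other sources name other software versions. The 4 tables held 32285 features each. The members and the 32 gene lists were chosen with earlier results of these data known. Counts were pooled over spots and scaled to CPM, and ratios carry a conditional binomial interval at 95%. A gene was tested from 200 UMIs and called at 1.5-fold. Named genes were the 15 with the highest lower bound and the 10 with the lowest upper bound of the ratio, plus list genes. Spots were thinned to 2000 UMIs in 20 draws (seed 1). Regions were Leiden clusters (2000 variable genes, 30 components, 15 neighbours, resolution 0.5). A spot is not 1 cell, so no doublet caller was run. Ratios were tested on simulated data. TMM factors (edgeR) and size factors (DESeq2) were computed on the pooled counts as alternatives. Tools were Python 3.11.15, SciPy 1.17.1, Scanpy 1.11.5, leidenalg 0.10.2, edgeR 4.0.16 and DESeq2 1.42.0. Spot positions and images were not used here. Some members of the gene lists are not reported by name here.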

Additional observations from a re-analysis of the deposited data

Results flagged for a closer look

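Several genes differed between marker-rich and other spots in opposite directions in 2 sections. With 1 section per day, none of these differences between days was tested. Sox9 had a ratio of 7.03 at day 1 and 0.444 (0.374 to 0.524) in the top 10% of spots at day 7, when its level over the section was 84.5 CPM. Plk2 had 5.74 at day 1 and 0.583 (0.456 to 0.737) at day 3, and Fosl1 4.22 and 0.318 (0.215 to 0.455). Retnla had 5.03 at day 1, from 1 spot, and 0.554 (0.416 to 0.726) at day 7. The tendon gene Fmod went the other way, with 0.0517 at day 1 and 1.70 (1.35 to 2.12) at day 0, as did Angptl7, with 0.0773 at day 1 and 3.40 (2.78 to 4.14) at day 7. The day 3 score was 81.5% Rrad.

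The 513 spots of the day 1 section under 2000 UMIs, which the rule leaves out, also held RNA of the 4 score genes. They had 812.7 CPM of the 4 genes summed, against 646.9 CPM in all 2154 spots of 2000 or more UMIs, 440 CPM in those that were not marker-rich and 93.8 CPM in the uninjured section, and 39.0 CPM of Sox9 from 20 UMIs.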

How the results depend on the processing

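Of 336 values of the named genes other than Sox9 under 14 settings, 335 kept their direction, and so did 389 of 406 values of the lists outside the adult myofibre and early skeletal lists. The named genes were chosen for extreme ratios in these same spots, so their kept direction says little. Sizes were less stable: 91 of the 336 and 207 of the 406 values moved outside the counting interval of the main value. Values past 1.5-fold that reversed were Retnla at the 95th percentile (log2 ratio -2.68) and the chemokine and cytokine list with the other spots reweighted to the regions of the marker-rich spots (-0.22). That reweighting, and one to their myofibre share, were chosen after seeing the data. The cause was not tested for any of these.

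The 1501 higher genes became 607 with TMM factors, 633 with size factors, 2716 from 50 UMIs, 4262 without a minimum, 388 at 2-fold, 347 with region reweighting and 778 with myofibre share reweighting. The 535 lower genes became 1160, 1123, 1116, 1504, 205 and 352 under the first 6 of these. Sox9 (log2 ratio 2.81) moved to 3.21 without Gadd45a in the score, 1.998 without Rrad, 2.49 without Dusp5 and 1.29 with region reweighting, and stayed above 1.5-fold in all settings.

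The adult myofibre list (-0.45) was at -0.42 with spots weighted equally, with other spots reweighted by depth and without Thbd, -0.46 from 4000 UMIs and at the 95th percentile, -0.47 without Dusp5, -0.58 with a total free of mitochondrial, haemoglobin and myofibre genes, -0.73 with TMM factors and -0.72 with size factors. Reweighting by region left -0.075 and by myofibre share -0.071.

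The early skeletal list (0.055) had no stable direction: 0.25 with spots weighted equally, 0.21 at the 95th percentile, 0.23 without Gadd45a, 0.27 without Thbd and 0.36 with region reweighting, but -0.23 without Rrad, -0.23 with TMM factors, -0.22 with size factors, -0.25 with myofibre share reweighting and -0.74 without Sox9, a list chosen after seeing the data.

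Depth limits what single spots show: 45 marker-rich spots were chosen on 10 or fewer marker UMIs. No paired analysis was possible because there was 1 section per day.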
